A study of Mus musculus with 8 samples.

Results

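The transcriptome described here is that of the wild-type mouse thoracic aorta, as read on the 4 arrays titled Fto +/+ among the 8 arrays of a study of Fto loss in vessels. Fto encodes a dioxygenase that demethylates adenosine in RNA, and the mice of this group carried it. Per the labels, the mice had a mixed C57BL6J/NMRI background, were labelled male, were fed freely and lived under a cycle of 12 h light and 12 h dark. Each sample was total RNA of thoracic aorta with an integrity number above 8, labelled with Cy3 and read on 1 array. The labels give no age and no time of collection, and they do not say whether a sample came from 1 animal. The arteries were thus read as whole tissue, in which more cells of a type and more RNA per cell cannot be told apart.

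The labels were checked first. The Fto probe read intensities of 567, 752, 530 and 409 on Fto +/+ replicates 1 to 4, which is a level of 0.57 ± 0.21 (SD, n = 4) on the log2 scale explained below. On the 4 Fto -/- arrays it lay between -2.77 and -2.19, so the title and genotype fields match it, while the free-text description of each sample names the opposite genotype. The sex label did not match the arrays. Xist, whose RNA silences an X chromosome in females, was measured by both of its probes on every Fto +/+ array, the brighter at intensities of 803, 878, 663 and 853. Of the Y-linked genes, Zfy1, Eif2s3y, Kdm5d and Ddx3y were above background on 0 of the 4, and 1 probe of Uty was so on replicate 3 alone, at 208.

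A level is the log2 of a probe's processed intensity minus the log2 of the 75th percentile of its array, so a level of 0 is that percentile itself and each unit is a doubling. The 75th percentile was 375, 416, 381 and 320 in intensity on replicates 1 to 4. Of 55681 probes, 22609 (40.6%) were well above background on all 4 arrays and 27603 on none. RefSeq accessions named 28331 probes (50.9%) for 21368 genes, of which 12086 (56.6%) had their brightest probe well above background on all 4 arrays. The 1000 brightest probes carried 59.3% to 61.3% of the signal of an array.

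The wall of a large artery has an inner lining of endothelium, a media of smooth muscle cells between elastic sheets, and an adventitia of fibroblasts and collagen. Smooth muscle contracts when calcium activates myosin light chain kinase, and its mature state is marked by smooth muscle actin, myosin and the proteins that bind them. Serum response factor, with its coactivator myocardin, is known to switch on these genes through a short AT-rich element, the CArG box. Fat around the thoracic aorta is known to resemble brown fat and is not always removed in dissection.

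The brightest contractile genes were Acta2, smooth muscle actin, and Myl9, the regulatory light chain of smooth muscle myosin, followed by Tagln, Cnn1 and Flna. The promoters of Acta2 and Myl9 are shown because these genes gave the strongest signal of the tissue's main cell. Tagln had no promoter entry, so its promoter was not searched. The sequences are the 250 bases upstream of the gene start from RefSeq, build GRCm38.p6. Capitals mark stretches that match the CArG box or differ from it at 1 position, sought on both strands.
Acta2, chr19:34255374-34255623, minus strand: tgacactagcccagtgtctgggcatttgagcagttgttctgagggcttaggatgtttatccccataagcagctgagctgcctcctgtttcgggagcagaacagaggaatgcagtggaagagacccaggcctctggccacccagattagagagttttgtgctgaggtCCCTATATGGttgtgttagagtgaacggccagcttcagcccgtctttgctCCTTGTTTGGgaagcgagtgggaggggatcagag
Myl9, chr2:156775214-156775463, plus strand: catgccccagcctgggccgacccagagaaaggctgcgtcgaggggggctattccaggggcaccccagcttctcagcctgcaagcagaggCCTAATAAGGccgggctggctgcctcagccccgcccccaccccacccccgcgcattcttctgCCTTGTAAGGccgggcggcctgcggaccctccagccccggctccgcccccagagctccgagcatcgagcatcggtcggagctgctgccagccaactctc

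The Myl9 promoter held 1 full match, CCTAATAAGG, 161 bases upstream of the gene start, and 1 near match, CCTTGTAAGG, 99 bases upstream. The Acta2 promoter held no full match and 2 near matches, CCCTATATGG and CCTTGTTTGG, at 84 and 34 bases upstream. The same windows of Cnn1 and Flna held none of either kind. Over all 32851 RefSeq promoters of this length, 1.47% held a full match and 8.59% a full or near match. Of the 23 promoter entries found for the contractile list, 4 (17.4%) held a full match and 7 (30.4%) a full or near match. Tagln, Myh11, Actg2 and Myocd of that list had no entry and are not in these shares. A gene can have several entries, and the full matches were those of Ldb3, Myl9 and Vcl. Matches describe letters in a window and were not tested as sites.

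The signal of these genes was close to the same on all 4 arrays. Acta2 read intensities of 333213, 331174, 335682 and 326410, which are levels of 9.80, 9.66, 9.78 and 10.01. Myl9 read levels of 9.79, 9.66, 9.68 and 9.96. Tagln, transgelin, an actin-binding protein of smooth muscle, read 9.69, 9.55, 9.59 and 9.88. Replicate 4 was the highest and replicate 2 the lowest for all 3 genes, with a span of at most 1.275-fold. Cnn1, calponin, which binds actin and slows its motor, had a level of 9.28 ± 0.16, and Flna, the actin crosslinker filamin A, one of 8.95 ± 0.13 (SD, n = 4 each).

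Named genes were ranked by the mean level of their brightest probe. Places 1 to 25 held Slc10a1, Kctd14, Acta2, Myl6, Myl9, Tagln, Actb, Glrx2, Rn4.5s, Exosc2, Csrp1, Ttc38, Elk1, Sparc, Milr1, Med16, Cnn1, Rps14, Mfge8, Fth1, Rpl37a, Mgp, Rpl10, Tpt1 and Fam177a2. Their mean levels ran from 9.93 to 8.97, and place 26, Ppia, had 8.96, so the edge of this list is narrower than the spread between arrays. Several are parts of the arterial wall: Myl6 is the essential light chain of smooth muscle myosin, Csrp1 a cysteine-rich protein of smooth muscle, and Mfge8 a secreted glycoprotein of the media. Sparc binds collagen in the matrix, and Mgp, matrix Gla protein, keeps arteries from calcifying. Others serve every cell: Actb is cytoplasmic actin, Fth1 stores iron, Tpt1 is an abundant growth-related protein, and Rps14, Rpl37a and Rpl10 are ribosomal.

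A rank of signal is not a rank of transcripts, because probes differ in how strongly they bind and in what they bind. Slc10a1, the bile acid transporter of hepatocytes, took place 1 with levels of 9.84, 9.83, 9.92 and 10.11. Its other probe was well above background on 0 of the 4 arrays, at a mean of -5.34, a gap of 15.27 on the log2 scale between probes of 1 gene. Kctd14 stood at 9.81 with its brightest probe, while its other probes stood at -4.03 (above background on 1 array) and -4.55 (on none). Elk1, a transcription factor gene, read 9.41 with 1 probe and -3.57 with the other.

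Of the 25 genes, 12 had more than 1 probe, and in 8 of these the probes spanned over 100-fold. The 8 were Slc10a1, Kctd14, Glrx2, Ttc38, Elk1, Sparc, Milr1 and Fam177a2, where Sparc read 9.35, 4.27 and -1.27. Probes of Myl6 (9.81 and 8.68), Rpl10 and Tpt1 lay close together. The remaining 13 genes had 1 probe, so no second reading stands beside theirs. When the median over probes stood for each gene, 16 of the 25 remained among the brightest 25. All contractile genes and ribosomal genes named here were among the 16, and Slc10a1, Kctd14, Glrx2, Ttc38, Elk1, Sparc, Milr1, Med16 and Fam177a2 were not.

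**Figure D1:**
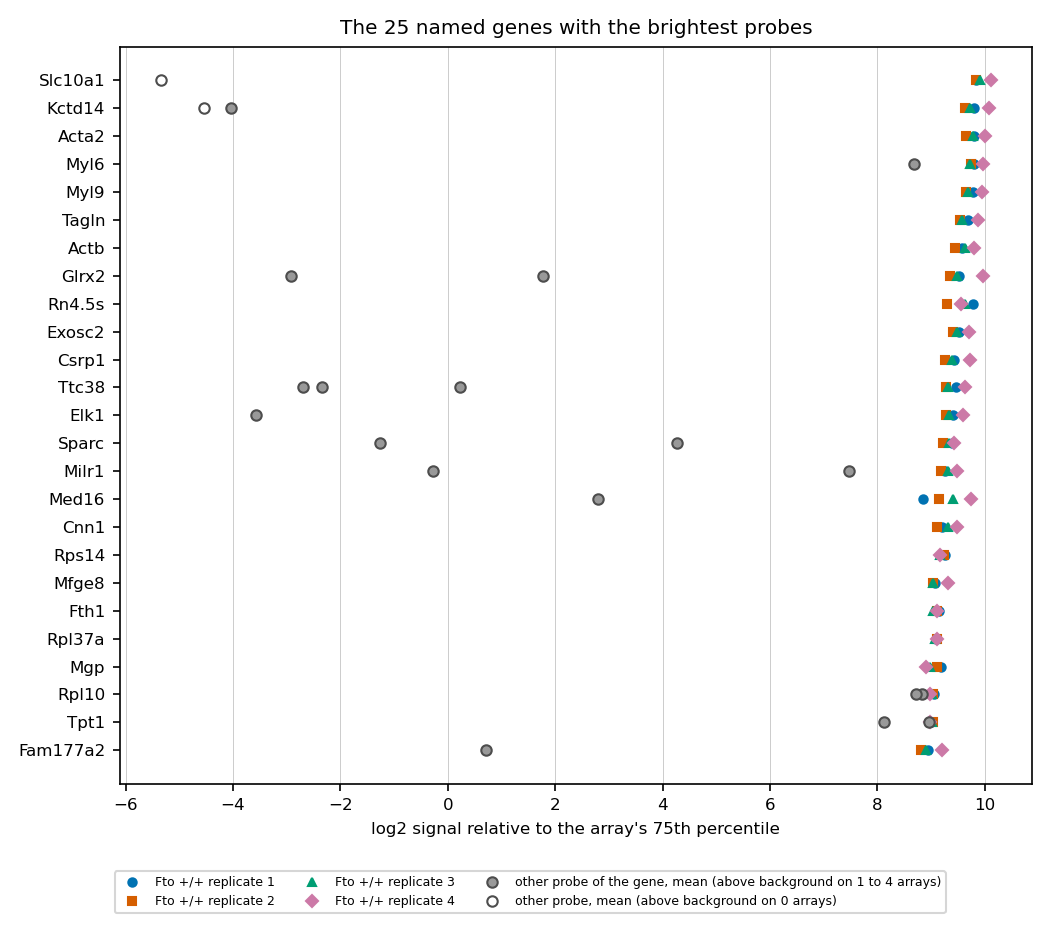
Each row is 1 of the 25 named genes with the brightest probes, and the horizontal axis is the log2 signal relative to the array's 75th percentile. Coloured symbols are the 4 arrays for the brightest probe, and grey or open circles are the means of other probes of the same gene. The 4 arrays lie together near 9 to 10 while other probes reach down to -5.34 for Slc10a1.

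The same held beyond the brightest genes. Among 2914 genes with at least 2 probes well above background on all 4 arrays, the median span between the dimmest and the brightest was 3.82-fold, and 48.4% spanned over 4-fold. Of 4179 genes with several probes whose brightest was well above background on all 4 arrays, 980 (23.5%) had another probe that was above it on 0. Levels below are therefore those of 1 probe, compared mainly between arrays, and the order of genes is an order of signal.

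Of the 100 brightest named genes, 31 were Rpl or Rps genes, which encode ribosomal proteins. In all 84 such genes had a probe, 81 were well above background on all 4 arrays, and their median signal percentile was 99.3. A percentile is the percent of an array's probes with a lower value, and the median over all named genes was 67.1 ± 0.46 (SD, n = 4 arrays). Contractile genes gave 7 of the 100 (Acta2, Myl9, Tagln, Cnn1, Flna, Smtn and Tpm2), adventitial genes 4 (Col1a2, Dcn, Medag and Gsn) and matrix genes 3 (Sparc, Mgp and Mfap4). The heat shock list gave Hspb1, a small chaperone abundant in muscle. The endothelial, adipocyte, macrophage and lymphocyte lists gave 0.

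**Figure D2:**
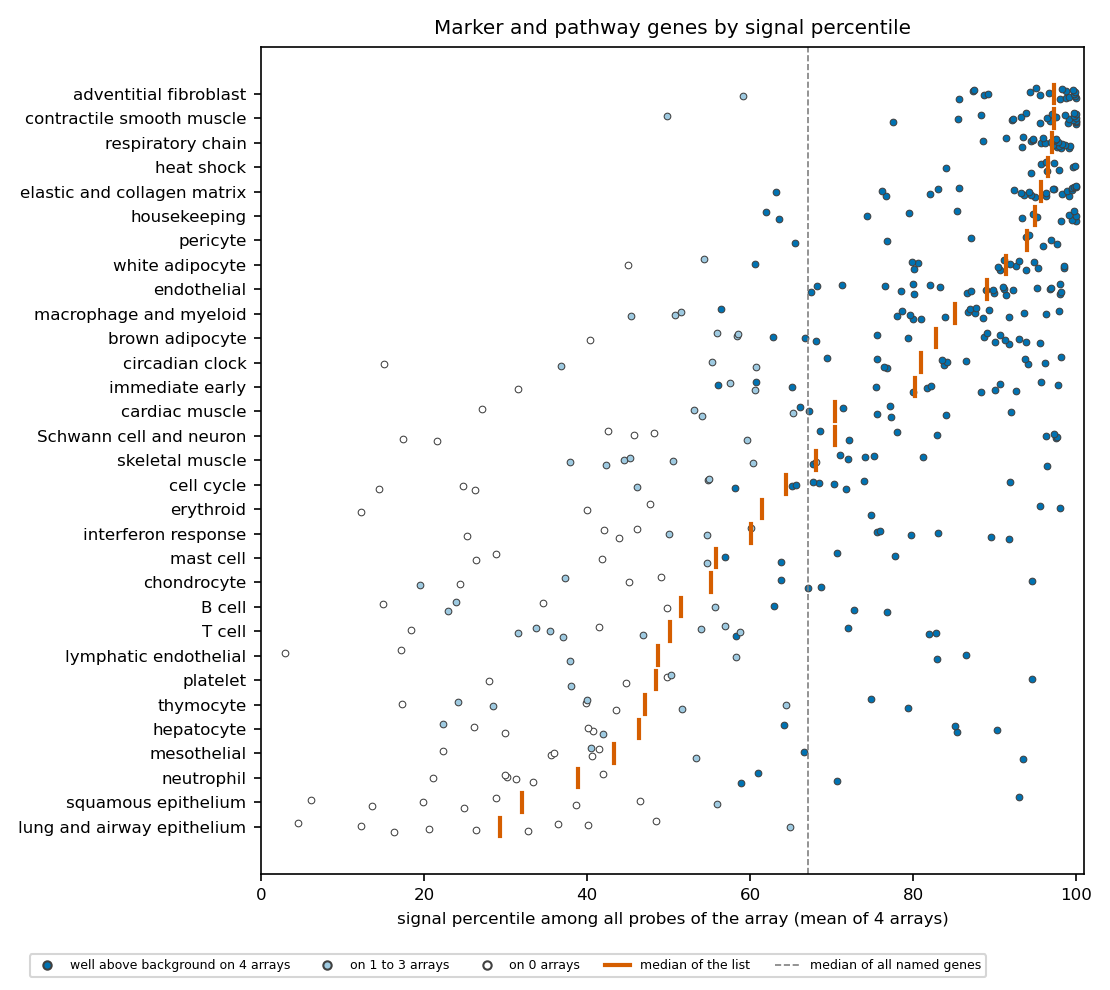
Each point is a gene of a marker or pathway list, placed by the mean signal percentile of its brightest probe over the 4 arrays, and the orange bar is the median of the list. Filled points were well above background on all 4 arrays, pale points on 1 to 3 and open points on none. Adventitial, contractile, respiratory chain and heat shock genes lie highest, with medians of 97.3, 97.3, 97.0 and 96.6, and lung and airway genes lowest at 29.3.

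Contractile smooth muscle genes had a median percentile of 97.3 ± 0.14 (SD, n = 4 arrays), with 97.2, 97.4, 97.4 and 97.2 on replicates 1 to 4. Of the 24 genes, 23 were well above background on all 4 arrays. Below the brightest 5 stood Smtn, smoothelin, at 8.10 ± 0.24, Tpm2, a tropomyosin, at 7.95 ± 0.11, and Itga8, an integrin of contractile cells, at 7.76 ± 0.10. Myh11, the myosin heavy chain that defines mature smooth muscle, read 6.94, 6.74, 6.84 and 7.36. Its highest array was replicate 4 and the span was 1.54-fold. Mylk, the kinase that triggers contraction, had 4.82 ± 0.17, and Kcnmb1, a subunit of the calcium-activated potassium channel, 3.19 ± 0.05.

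Myocd, the myocardin coactivator, read 3.31, 4.03, 3.40 and 3.39, with replicate 2 apart from the other 3. The lowest members were Des, the muscle intermediate filament desmin, at 0.25 ± 0.17, and Pln, the calcium pump regulator phospholamban. Pln was well above background on replicate 1 alone and had the largest SD of the list, 0.87.

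Adventitial fibroblast genes had a median percentile of 97.3 ± 0.92, which does not differ from that of the contractile genes beyond the spread between arrays. Of 20 genes, 19 were well above background on all 4 arrays, and the peptidase gene Dpp4 was on 3. Col1a2, a chain of type I collagen, read 8.997, 8.51, 8.83 and 8.70. Dcn, decorin, a proteoglycan that binds collagen fibrils, read 8.85, 8.68, 8.98 and 8.24. Medag, a gene of fat cell development, stood at 8.65 ± 0.17 and Gsn, the actin-severing gelsolin, at 8.13 ± 0.16.

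Pi16, which marks a population of adventitial fibroblasts, stood at 7.74 ± 0.23. Pdgfra, the growth factor receptor used to define fibroblasts, read 2.46, 1.90, 2.47 and 1.47. Lum, the proteoglycan lumican, had the largest SD of the list, 0.82, with levels of 5.87, 4.74, 5.45 and 4.00. In Dcn, Pdgfra and Lum replicate 4 was the lowest array, as it was for 13 of the 20 genes. Over all genes measured on at least 1 array, replicate 4 was the lowest for 40.35%.

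Genes of the elastic and collagen matrix had a median percentile of 95.6 ± 0.47, and all 24 were well above background on the 4 arrays. Behind Sparc and Mgp (9.04 ± 0.12) came Mfap4, a protein of elastic fibres, at 7.92 ± 0.18, and Ltbp4, which helps to lay them down, at 7.59 ± 0.09. Eln, elastin itself, read 4.75, 3.31, 3.90 and 3.66, so replicate 1 was the highest and the span was 2.71-fold. Lox, the enzyme that crosslinks elastin and collagen, read 1.87, 0.50, 1.54 and 1.01, again highest on replicate 1 and lowest on replicate 2. Fbn1, the microfibril protein fibrillin, stood at 3.27 ± 0.26. Col15a1, a collagen of basement membrane zones, varied most, with -0.03, -1.09, 0.18 and 1.42.

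Endothelial genes had a median percentile of 89.0 ± 1.11, and all 24 were well above background on the 4 arrays. Egfl7, a protein that endothelium secretes, had the highest level, 5.87 ± 0.22, followed by Vwf, the clotting factor it stores, at 5.79 ± 0.28. Cd34, which adventitial fibroblasts also make, stood at 5.78 ± 0.32, and Mmrn2, a matrix protein of vessels, at 5.08 ± 0.25. Pecam1 and Cdh5, adhesion molecules of the endothelial junction, were lower. Pecam1 read 0.96, 1.45, 1.57 and 1.08, and Cdh5 read 0.69, 0.74, 1.00 and 0.36.

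Nos3, the enzyme that makes nitric oxide in endothelium, stood at 4.25 ± 0.26, and Gja5, a gap junction protein of arterial endothelium, at 3.25 ± 0.40. Robo4, a guidance receptor of endothelium, had the largest SD, 0.76, with -1.55, -2.03, -0.23 and -1.22. Replicate 3 was the highest array for Pecam1, Cdh5, Nos3, Gja5 and Robo4, and for 17 of the 24 genes, where 17.5% of all genes had their highest value on it. The whole list differed by 1.37-fold between its highest array, replicate 3, and its lowest, replicate 1.

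Lymphatic markers were mostly dim. Prox1, the transcription factor that sets lymphatic identity, was well above background on 0 arrays, as was Reln. Lyve1, the hyaluronan receptor of lymphatic vessels and of some macrophages, read 1.34, 1.36, 1.59 and 0.53. Pdpn, podoplanin, stood at 1.88 ± 0.13, and at -0.67 with the median over its probes. Flt4, the lymphatic growth factor receptor, was measured on replicate 3 alone. All 8 pericyte genes were well above background on the 4 arrays, and several of them, such as Notch3 and Rgs5, are also made by arterial smooth muscle. Cspg4, a proteoglycan of mural cells, had the highest level, 5.501 ± 0.32, and Rgs5, which damps G protein signals, read 4.08, 4.44, 3.45 and 3.54. Pdgfrb, the growth factor receptor of mural cells, stood at 3.75 ± 0.31.

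White adipocyte genes had a median percentile of 91.4 ± 3.19, with 90.9, 87.0, 94.1 and 93.4 on replicates 1 to 4. Of 17 genes, 15 were well above background on all 4 arrays, Trarg1 was on 2 and Lep, leptin, on 0. Cfd, the adipokine adipsin, read 6.91, 4.55, 8.08 and 7.35. Fabp4, a fatty acid carrier, read 5.87, 5.58, 7.25 and 6.67. Adipoq, the adipocyte hormone adiponectin, read 2.87, 1.30, 4.24 and 3.38. All 3 were highest on replicate 3 and lowest on replicate 2, with spans of 11.5-fold, 3.19-fold and 7.68-fold.

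Agpat2 and Pnpla2, which build and break down triglyceride, stood at 4.32 ± 0.27 and 4.09 ± 0.38. The median percentile of this list lay above that of the endothelial list by less than its own spread between arrays. Of the 16 genes measured on at least 1 array, 12 were highest on replicate 3 and 12 lowest on replicate 2. Over all genes, 17.5% were highest on replicate 3 and 21.0% lowest on replicate 2.

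Brown adipocyte genes had a median percentile of 82.8 ± 2.87. Of 18 genes, 14 were well above background on all 4 arrays and Elovl3, a fatty acid elongase, on 0. Cidea, a lipid droplet protein, was the brightest at 4.398 ± 0.37, followed by Cox8b, a subunit of cytochrome oxidase, at 3.87 ± 1.06, Fabp3, another fatty acid carrier, at 3.44 ± 0.15, and Acot11, a thioesterase, at 3.09 ± 0.26. Ucp1, the protein that lets brown fat burn fuel for heat, read 1.53, 0.88, 4.06 and 4.47. Replicates 3 and 4 were thus well apart from replicates 1 and 2, and the span of 12.1-fold was the largest of the list among genes well above background on every array.

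Macrophage and myeloid genes had a median percentile of 85.1 ± 3.98, with 86.9, 86.6, 87.7 and 79.2 on replicates 1 to 4. The brightest were Itgam, an integrin of myeloid cells, at 5.79 ± 0.54, Csf1r, the receptor that macrophages need to survive, at 4.75 ± 0.57, F13a1, a clotting factor of resident macrophages, at 3.69 ± 0.61, and C1qc, a chain of complement C1q, at 3.15 ± 0.67. Adgre1, the classical surface marker of mouse macrophages, read 1.06, 0.71, 1.26 and -0.29, and Cd68, a lysosomal marker, read 0.89, 0.75, 1.07 and -0.21. Lyz2, lysozyme, had the widest spread among genes measured on all 4 arrays, with 1.14, 0.67, 1.31 and -1.20. Replicate 4 was the lowest array for 17 of the 20 genes, against 40.35% of all genes. It was the highest for Itgam, at 6.57 against 5.37 to 5.72. The other 2 probes of Itgam stood at -2.59, well above background on 3 arrays, and at -3.59, on 0. With the median over its probes Csf1r stood at -0.09.

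Neutrophil markers were mostly below background. Of 9 genes, 6 were well above background on 0 arrays, among them S100a8, a calcium-binding protein that fills these cells, and Mpo, myeloperoxidase. S100a9, its partner, read -1.70, -2.32, -3.36 and -1.79. Of the mast cell proteases, Mcpt4 read -0.10, -0.38, 0.72 and 0.89, and Cpa3 read -2.75, -2.19, -1.25 and -1.43, with replicates 3 and 4 above replicates 1 and 2 for both. Of 9 B cell markers, 3 were well above background on all 4 arrays and 3, Cd79a and Ms4a1 among them, on 0. Those on all 4 were Blnk at 0.15 ± 0.65, Cd22 at -0.56 ± 0.42 and Cr2 at -2.04 ± 0.29. Globin genes of red blood cells were bright: Hba-a1, an alpha globin gene, read 4.95, 6.52, 5.82 and 6.10, and Hbb-bt, a beta globin gene, 3.54, 5.17, 4.39 and 4.64. Both belong to families of near-identical genes whose RNA the same probe can bind.

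T cell markers were uneven between arrays. Of 14 genes, 4 were well above background on all 4 arrays, 8 on fewer and 2 on none. Cd3d, a chain of the T cell receptor complex, was well above background on replicate 2 alone, at an intensity of 334 against 10.3 to 12.15 on the other arrays. Cd3g, Cd8a, Lat, Tcf7, Zap70 and Bcl11b were likewise measured on replicate 2 alone. Lck, the kinase that starts T cell receptor signals, read -2.13, 1.91, -1.93 and -0.16. Cd2, an adhesion receptor, read -2.84, -1.71, -2.98 and -3.07.

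Cd4, the co-receptor of helper cells, and Cd3e, another chain of the receptor complex, did not follow that order. Cd4 read 1.25, 1.00, 0.90 and 1.57, and Cd3e read 1.08, 1.06, 0.71 and 1.22, with replicate 4 the highest in each. A second Cd4 probe was well above background on 0 arrays.

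Markers of developing T cells in the thymus, an organ that lies above the heart near the aortic arch, gave the same array. Dntt, the enzyme that adds bases to receptor genes, read 1.61 on replicate 2 and from -3.45 to -2.25 on the other arrays. Rag1 and Rag2, the recombinase subunits, and Cd8b1 and Ccr9 were well above background on replicate 2 alone. Foxn1, which marks the epithelium of the thymus, was so on 0 arrays, as was Ptcra. As the mean of its gene-centred members, the thymocyte list stood at -0.98, 2.34, -0.67 and -0.68 and the T cell list at -0.71, 1.96, -0.80 and -0.44. In the T cell list 10 of 12 measured genes were highest on replicate 2, where 34.6% of all genes were. Members measured on replicate 2 alone entered both lists through that array and were bound to be highest there. For them the share over all genes is no like measure. Of the 4 T cell genes measured on all arrays, Lck and Cd2 were highest on replicate 2, and Cd4 and Cd3e on replicate 4. The parts that thymus and circulating T cells have in this signal were not tested.

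Muscle other than that of the vessel was also measured. Acta1, skeletal actin, which smooth muscle tissue can express too, read 4.99, 4.47, 4.99 and 4.84. The troponins of fast skeletal fibres moved by far more. Tnnc2 read 1.63, -0.32, 3.58 and -0.65, and Tnni2 read 0.85, -1.70, 3.31 and -2.15. Replicate 3 was the highest for both and for 11 of 14 skeletal muscle genes, against 17.5% of all genes. Of the 14, 7 were measured on 1 to 3 arrays only and entered through the arrays where they are high. For them the share over all genes is no like measure. Over the 7 genes measured on all arrays, the list stood at 0.33, -0.86, 1.53 and -0.998. The myosin heavy chain genes of fast fibres were on or off: Myh2 was well above background on replicate 3 alone, and Myh1 and Myh4 on replicates 1 and 3.

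Cardiac genes had another order. Myh6, the alpha heavy chain of cardiac myosin, read 0.45, 2.61, 1.48 and 1.24. With the median over its probes Myh6 had a mean level of -1.88. Tnnt2, cardiac troponin T, read -0.31, 1.98, -0.11 and -0.65. Replicate 2 was the highest for 9 of 11 cardiac genes, against 34.6% of all genes. Of the 11, 3 were measured on 1 to 3 arrays only and entered through the arrays where they are high. For them the share over all genes is no like measure. Over the 8 genes measured on all arrays, the list stood at -0.60, 0.73, 0.20 and -0.33. Myl4, an atrial light chain, was the brightest at 3.17 ± 0.24, Myh7, the beta heavy chain, stood at -0.09 ± 0.81, and Nppb was well above background on 0 arrays.

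Nerve and glial genes were mixed. Ncam1, an adhesion molecule, Snap25, a protein of vesicle release, and Pmp22, a myelin protein, stood at 5.45 ± 0.28, 5.33 ± 0.55 and 4.74 ± 0.15. Sox10, Tubb3, Prph and Dbh were well above background on 0 arrays. Th, the first enzyme of noradrenaline synthesis, stood at -1.22 ± 0.11.

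Most markers of airway, squamous epithelium and mesothelium were well above background on 0 arrays. Of 10 lung and airway genes, 9 were well above background on 0 arrays, Sftpc, a surfactant protein, among them. Scgb1a1, a secretory protein of airway cells, was measured on replicates 1, 2 and 4. Of 9 squamous epithelial genes 7 were on 0 arrays, including Krt5, and Trp63, at 3.44 ± 0.27, had another probe that was on none. Of 9 mesothelial genes 5 were on 0, while Msln, mesothelin, read -1.70, -0.53, -0.56 and -2.96, and Krt18 stood at 3.63 ± 0.41. Of 9 cartilage genes, 4 were well above background on all 4 arrays, namely Comp, Chad, Acan and Hapln1, and 3 were on 0, Col2a1, the main collagen of cartilage, among them. Comp, a matrix protein of cartilage, tendon and vessels, stood at 4.05 ± 0.53. Of 10 hepatocyte genes, 4 were well above background on all 4 arrays and 4 on 0. Cyp2e1, a cytochrome P450 enzyme, stood at 3.04 ± 1.89 and Serpina1a, a protease inhibitor, at 1.65 ± 0.98. Apoa2, an apolipoprotein, stood at 1.69 ± 0.62, and at -1.19 with the median over its probes. Alb, albumin, the main product of hepatocytes, was well above background on replicate 2 alone.

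**Figure D3:**
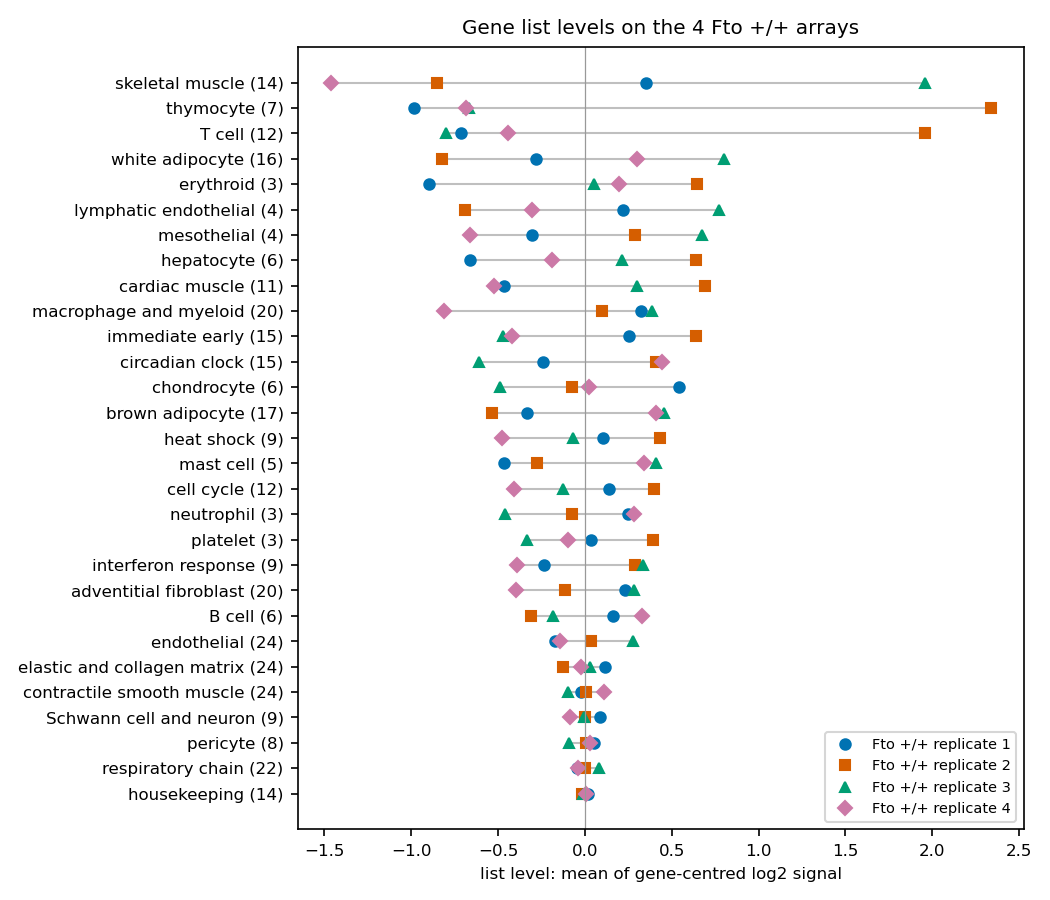
Each row is a gene list with the number of genes in its level in brackets, and the horizontal axis is the list level, the mean of log2 signal of its genes, each less its own mean of the 4 arrays. Symbols are the 4 arrays and grey lines join the lowest to the highest. Replicate 3 stands apart for skeletal muscle (1.96), replicate 2 for thymocyte and T cell genes (2.34 and 1.96) and replicate 4 for macrophage genes (-0.81). Genes measured on 1 array alone count in these levels. Housekeeping genes span 0.03.

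The median range of list levels over the arrays was 0.99 on the log2 scale, and 0.58 with normexp background correction, a setting chosen after seeing the data. Lists of the vessel wall lay below 0.99: the pericyte list spanned 0.14, contractile genes 0.20, matrix genes 0.24, endothelial genes 0.45 and adventitial genes 0.68, which with normexp was 0.67 and so above the median range of that setting. The respiratory chain spanned 0.13 and housekeeping genes 0.03. The widest lists of at least 4 genes were those of skeletal muscle at 3.42, thymocytes at 3.32, T cells at 2.75 and white adipocytes at 1.62.

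Leaving out 1 array narrowed several of these ranges by over 1.5 times. With the same genes, a range cannot widen when an array is left out. The pericyte range was 0.05 and the endothelial range 0.21 without replicate 3, the matrix range was 0.15 without replicate 1 and 0.14 without replicate 2, and the adventitial range was 0.40 without replicate 4. The contractile range was 0.13 without replicate 3 and 0.10 without replicate 4. The respiratory chain range was 0.04 without replicate 3. Without replicate 2 the T cell range was 0.55 and the thymocyte range 0.30. Without replicate 3 the skeletal muscle range was 1.94, and without replicate 4 the macrophage range was 0.29. Over only the 4 T cell genes measured on all arrays the T cell range was 1.39, with replicate 2 highest. Over only the 2 thymocyte genes measured on all arrays the range was 0.77, with replicate 3 highest at 0.28 and replicate 2 at 0.11. The skeletal muscle range over only the 7 genes measured on all arrays was 2.52, with replicate 3 highest. With normexp the T cell range was 1.29, the thymocyte range 1.65 and the skeletal muscle range 2.05. Replicate 1 lies in another row of the slide than replicates 2 to 4, and the part of slide position was not tested.

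Pathway genes that every cell uses were among the steadiest. All 22 respiratory chain genes were well above background on the 4 arrays, with a median percentile of 97.0 ± 0.13. Cox4i1, a subunit of cytochrome oxidase, was the brightest at 7.11 ± 0.07, followed by Atp5b, of the ATP synthase, at 6.94 ± 0.10. Ppia, cyclophilin A, read 8.98, 8.97, 8.94 and 8.94, and Gapdh, of glycolysis, 7.65, 7.56, 7.55 and 7.60. Cell division genes had a median percentile of 64.3 ± 3.17, near the 67.1 of all named genes, and 9 of 15 were well above background on all 4 arrays. Pcna, the sliding clamp of DNA replication, was at 3.12 ± 0.26 and Mki67, the marker of dividing cells, at -1.23 ± 0.58, while Cdk1, Aurkb and Bub1 were well above background on 0 arrays. Of 13 interferon response genes, 6 were measured on all arrays, led by Bst2, tetherin, at 3.08 ± 0.19.

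Immediate early genes, which cells induce soon after a stimulus, were uneven between arrays. Jun, a subunit of the AP-1 transcription factor, stood at 5.63 ± 0.42. Nr4a1, an orphan nuclear receptor, read 5.19, 6.32, 3.02 and 4.396. Fos, the partner of Jun, read 1.61, 2.44, -0.36 and 0.46. Atf3, a stress-induced factor, read 2.19, 2.13, -0.25 and -0.98.

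Replicates 1 and 2 lay above replicates 3 and 4 in Nr4a1, Fos and Atf3. Of 15 measured immediate early genes, 11 were highest on replicate 2 and 9 lowest on replicate 3. Over all genes, 34.6% were highest on replicate 2 and 21.6% lowest on replicate 3. Among heat shock genes, Hspa1a, the inducible chaperone, read 1.80, 3.204, 1.22 and -0.14, while Hspa8, its constitutive relative, stood at 7.81 ± 0.08.

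The circadian clock runs in the vessel wall as in other tissues. Its positive arm, Arntl with Clock or Npas2, is known to peak at another time of day than the output genes that it drives, such as Dbp. Arntl, which encodes BMAL1, read 1.55, -2.44, 1.93 and -0.11. Npas2 read -2.49, -1.89 and -2.90 on replicates 1, 3 and 4 and was not well above background on replicate 2. Both were highest on replicate 3 and lowest on replicate 2.

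Dbp, an output factor, had the reverse order, with 4.54, 6.77, 2.88 and 6.51. Its relatives Tef (5.62, 6.97, 4.98 and 6.45) and Hlf (1.08, 2.61, 0.32 and 1.85) had the same order of arrays as Dbp. Per1, a repressor of the clock, stood at 3.77 ± 0.72, and Per3 read -1.77, -0.13, -2.44 and 0.18. Nfil3, a repressor that acts on the same sites as Dbp, read 3.42, 1.65, 3.10 and -0.05. In Arntl and Nfil3, replicates 1 and 3 lay above replicates 2 and 4, and in Dbp, Tef, Hlf and Per3 they lay below them. Cry2 stood at 3.84 ± 0.39, and Cry1 was well above background on 0 arrays.

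**Figure D4:**
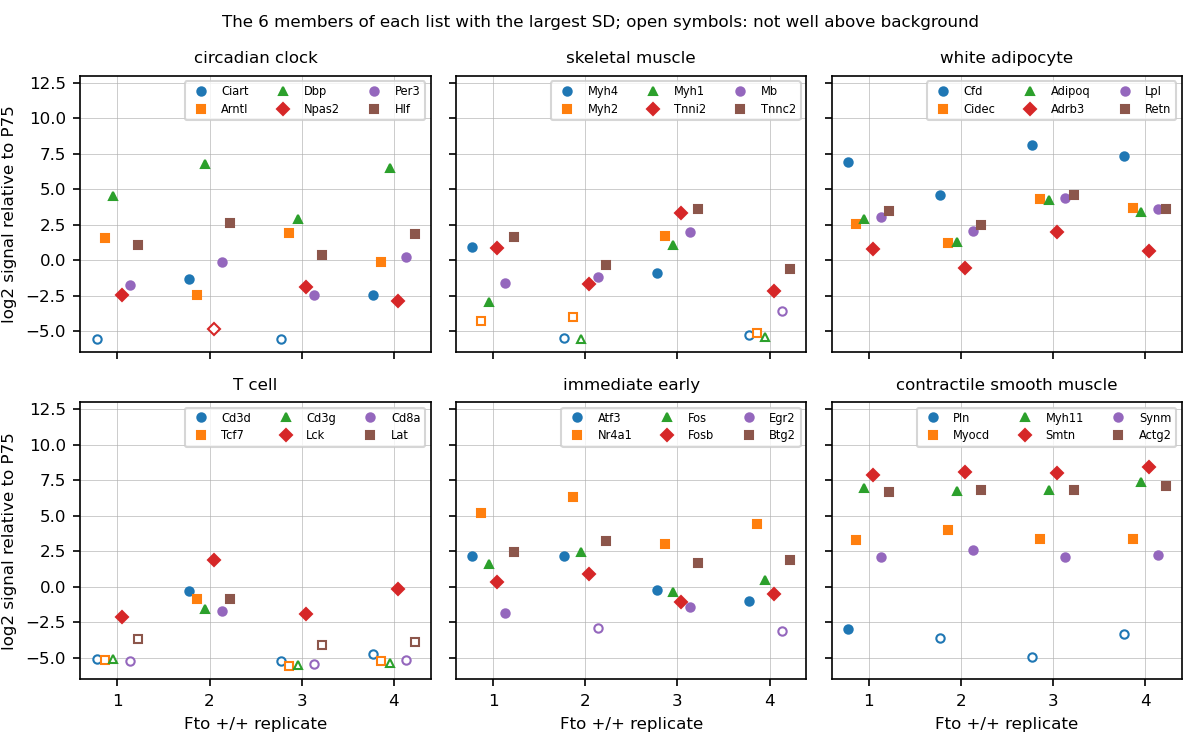
Each panel shows, for 1 gene list, the 6 members with the largest SD between arrays among those above background on at least 1, with the log2 signal relative to the 75th percentile on the vertical axis and the 4 Fto +/+ replicates on the horizontal axis. Open symbols were not well above background. Dbp is high where Arntl is low, most of the T cell genes shown are above background on replicate 2 alone, and Myh11 stays between 6.74 and 7.36.

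The arrays otherwise repeated each other closely. Over the 22609 probes well above background on all of them, the median SD was 0.19 on the log2 scale, and 129 probes (0.571%) had an SD over 1. The median absolute difference between 2 arrays was 0.21 ± 0.05 (SD over 6 pairs), or 1.15-fold. It was lowest between replicates 1 and 3, at 0.13, and highest between replicates 2 and 4, at 0.28, and all 3 pairs with replicate 4 exceeded the other 3. Across probes, which are not independent replicates, Pearson's r ran from 0.981 to 0.993.

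For 223 measured probes printed 10 times on each array, the SD of repeated spots was 0.07 at the median and the SD between arrays 0.17, and 188 of the 223 had the larger SD between arrays. Spread fell with brightness, from a median SD of 0.27 at levels below -2 to 0.11 above 6.

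**Figure D5:**
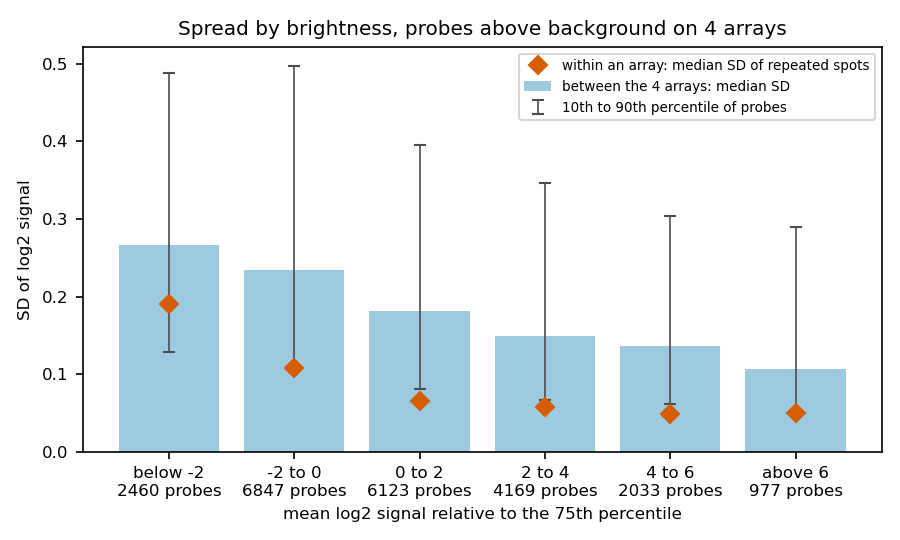
Bars are the median SD of log2 signal between the 4 Fto +/+ arrays for probes well above background on all of them, by bins of mean level on the horizontal axis; whiskers run from the 10th to the 90th percentile of probes. Diamonds are the median SD of repeated spots within an array. Bars fall from 0.27 to 0.11 and each lies above its diamond.

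Of 11616 named genes measured on all 4 arrays, 134 (1.15%) spanned at least 4-fold. They were highest on replicates 1 to 4 in 14, 39, 59 and 22 cases and lowest in 23, 53, 21 and 37. The lists held 33 of them: 6 white adipocyte, 5 clock, 4 skeletal and 4 cardiac genes among others, and 0 of the contractile, endothelial or adventitial lists.

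The 20 with the largest SD were Gabra3, Tnni2, Arntl, Tnnc2, Cyp2e1, Pck1, Lck, Dbp, Ucp1, Cox6a2, Myl1, Sln, Mup1, Tnnt3, Atf3, Nfil3, Dcaf7, Cfd, Mup17 and Mup19, of which 11 belong to a list. Gabra3, a subunit of the GABA receptor, read 5.36, 5.27, 0.01 and 5.19, so 1 array alone makes its spread. Cyp2e1, an oxidase of liver and fat, read 2.86, 0.54, 5.02 and 3.75, and Pck1, of glyceride and glucose synthesis, 1.24, -0.43, 3.87 and 2.83. Both had the order of arrays seen in Adipoq and Cfd. Cox6a2, a muscle subunit of cytochrome oxidase, was highest on replicate 3 (1.92) and lowest on replicate 4 (-2.34), as were Tnni2 and Tnnc2. Sln, a calcium pump regulator of muscle, read -1.996, 0.95, 1.15 and -1.87, high on both arrays where cardiac or skeletal genes were.

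The 10 named genes with the smallest SD at a mean level above 0 were Parp1, Mia3, Lypla2, Mcts1, Mapkapk2, Psmb6, Gnaq, Lyl1, Pld2 and Hbs1l, all with an SD of at most 0.0128. Parp1, a DNA repair enzyme, read 0.13, 0.15, 0.14 and 0.13, and Psmb6, a subunit of the proteasome, 6.56, 6.57, 6.54 and 6.56. They are the smallest of many ranked values.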

How the data were processed

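The 4 Fto +/+ arrays were analysed from the scanner files. Per the file headers, these deposited values are intensity per spot from Agilent Feature Extraction 11.0.1.1, with background subtracted and no scaling from array to array. A deposited table of the series holds log2 values of which every probe has a median of 0 over the 8 arrays (within 0.001). How its arrays were normalised is not stated in the labels or headers, and differences between arrays followed the scanner files (slopes 0.974 to 0.996, r 0.987 to 0.999 across probes). Its column medians ran from 0.000856 to 0.00487.

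Control spots (3671 of each array) and 133 to 172 outlier spots were left out, spots of a probe were averaged, and log2 intensity was set against the array's 75th percentile. Scanner software flags defined "well above background". The array is annotated on mm9, so names came through RefSeq accessions in a table of GRCm38.p6. The probe of highest mean stood for a gene. Of 31 lists with 421 different genes, the brightest 4 members, the first 2, the largest SD and undetected members are named, with the brightest 25, the 20 most and 10 least variable genes. Clone names were left out, and a few list members are not reported here. Other genes were chosen after their values were seen. Members and lists were chosen with earlier results of these data known. No groups were compared, since there was 1 group, and the only test run was Dixon's test for outlying arrays. The number of arrays limits the precision, and the spread may be technical where samples share an animal. Intensities were also corrected with normexp on median signals (limma 3.58.1, R 4.3.3, offset 50), because the files give median and not mean signals. Python 3.11.15, numpy 2.4.6 and pandas 2.3.3 were used. The steps were tested on simulated data.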

Additional observations from a re-analysis of the deposited data

Results flagged for a closer look

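Of 198 gene and list values examined on the 4 arrays, 8 (4.04%) had 1 array whose gap to the nearest other took up nearly the whole range. Chance alone flags about 1 in 20 such groups of 4, so single cases carry little weight. On replicate 2 the T cell list stood at 1.96, against -0.80 to -0.44 on the other arrays, and the thymocyte list at 2.34, against -0.98 to -0.67. Members measured on replicate 2 alone entered both lists through that array. Over members measured on all 4 arrays, the T cell list stood at -0.40, 0.82, -0.57 and 0.15 on replicates 1 to 4. The thymocyte list over such members stood at -0.49, 0.11, 0.28 and 0.10. Cd2, a member of the T cell list, stood at -1.71 on replicate 2, against -3.07 to -2.84. Myocd was also highest on replicate 2, at 4.03 against 3.31 to 3.40. Gabra3 was lowest on replicate 3, at 0.01 (0.0116) against 5.19 to 5.36. Uty, on the Y chromosome, was highest on replicate 3, at -0.88 against values near -5.47 to -5.26 that were not well above background. On replicate 4, Mfge8 stood at 9.32 against 9.03 to 9.07, and Cr2, a complement receptor of B cells, at -1.61 against -2.24 to -2.13.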

How the results depend on the processing

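No paired analysis was possible because 1 group was described and no groups were compared. When the median over the probes of a gene replaced the brightest probe, the median percentile was 95.5 for contractile, 83.2 for endothelial, 95.4 for adventitial, 86.0 for white adipocyte and 79.7 for macrophage genes, and 16 of the brightest 25 genes remained. This follows from the rule, which takes dimmer probes. Gene levels are relative to the 75th percentile, and 13 of them crossed it, from either side, with the median over probes, among them Kctd14, from 9.81 to -3.93, Ttc38, from 9.43 to -1.06, Itgam, from 5.79 to -2.59, and Csf1r, from 4.75 to -0.09. With 1 array left out, 10 genes crossed it: Tnni2 went from 0.08 to -0.999 and Arntl from 0.23 to -0.33 without replicate 3, and Tnnt2 from 0.23 to -0.36 without replicate 2. With 1 array left out at a time, the probes well above background on all remaining arrays numbered 22758 to 23135. The median difference between 2 arrays was 0.16 to 0.23, and the median range of list levels was 0.74 to 0.87. With fewer arrays the count of such probes cannot fall, and with the same genes a range cannot widen. The median percentiles were 97.2 to 97.3 for contractile, 88.6 to 89.4 for endothelial, 97.0 to 97.7 for adventitial, 90.4 to 92.8 for white adipocyte, 84.2 to 87.1 for macrophage and 43.4 to 52.7 for T cell genes, and 24 to 25 of the brightest genes remained. Of 1312 gene levels under other settings 122 moved by more than the SD between arrays, 71 of them under normexp, which was chosen after seeing the data, as was taking only members measured on all 4 arrays. Of 340 ranges of single lists 42 moved. With normexp the median range of list levels was 0.58, the T cell range 1.29, the thymocyte range 1.65 and the skeletal muscle range 2.05. Signal near background limits dim probes: the lowest intensity called well above it was 34.2 to 40.9 between arrays.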

Other observations

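Some genes were bright on 1 array and at background on the others. Lrrd1, a gene of leucine-rich repeat protein, read an intensity of 29968 on replicate 1 and 7.52 to 8.92 on the other 3. B4galnt2, a glycosyltransferase gene, read 4338 on replicate 2 and at most 16.0 elsewhere. Mrap2, an accessory protein of melanocortin receptors, read 703 and 716 on replicates 1 and 4 and 11.1 and 10.5 on replicates 2 and 3. Foxp3, the transcription factor of regulatory T cells, read 364 on replicate 3 and 96.7 on replicate 4 and was not well above background on replicates 1 and 2, an order unlike that of the other T cell genes. Of all probes, 401 (159 of them named) were well above background on 1 to 3 arrays with a range over 16-fold. Probes measured on 1 array alone numbered 658, 770, 739 and 774 for replicates 1 to 4. These genes were chosen after their values were seen.

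Major urinary protein genes, a family of near-identical genes known from liver, were measured in the aorta. All 6 that were well above background on the 4 arrays were lowest on replicate 2, as were 21.0% of all genes. Their spans were 7.13-fold to 12.9-fold, and a probe of 1 member can read others. Mup1 read 1.46, -1.56, 2.14 and 1.73, and Mup19 read 2.58, -0.0048, 3.18 and 2.64. Highest on replicate 3 and lowest on replicate 2 was also the order of Adipoq, Cfd and Cyp2e1.

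Dcaf7, a scaffold gene, read -2.52, -0.20, -2.58 and 0.43, low on replicates 1 and 3 as were Dbp and Per3. One unnamed probe was saturated on replicate 4, at an intensity of 740343, and read 7.69, 9.16 and 8.41 on replicates 1 to 3.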
